A study of Homo sapiens with 9 samples.

Results

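The genes described here are the 48 that encode the DNA replication machinery and the enzymes that supply it with deoxynucleotides, chosen by symbol from the 60605 genes of the deposited table, with 1 entry per symbol. They comprised origin licensing factors and the MCM helicase (10 genes), factors that activate the helicase (6), DNA polymerase subunits (9), the sliding clamp and its loader (6), Okazaki fragment and single-stranded DNA proteins (5), nucleotide synthesis enzymes (4), fork protection proteins (4) and genes of protein turnover and chromatin assembly at forks (4). They were measured by RNA-seq of poly(A)+ RNA in TE13 cells, a human esophageal squamous cell carcinoma (ESCC) line, that had been given a control siRNA or 1 of 2 siRNAs against PARylator (PARylator siRNA.1 and PARylator siRNA.2). There were 9 libraries, 3 for each condition. PARylator is the study's name for the long noncoding RNA LINC00885, which both siRNAs target. The sources describe the libraries as biological replicates of 1 cell line but do not say how the cultures were kept apart, so the p-values cover the spread between these libraries only. A question this comparison bears on is whether the transcripts of the replication machinery changed when PARylator was knocked down, and whether both siRNAs did the same.

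DNA replication starts at origins, where the origin recognition complex, CDC6 and CDT1 load the MCM2-7 complex as an inactive ring during G1. CDC45 and the GINS complex then turn this ring into the active helicase, the polymerases copy both strands behind it, and the clamp PCNA, placed by replication factor C, holds them on the template. Ribonucleotide reductase makes the deoxynucleotides, and much of this gene set is transcribed in G1 and S phase under E2F transcription factors. In RNA from a whole culture, a change in the share of cells in S phase and a change in RNA per cell cannot be told apart. By flow cytometry, the paper reports an accumulation of TE13 cells in S phase after PARylator knockdown. Whether the same cultures were sequenced is not stated, and its part in the values below was not tested.

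Promoter sequence was available in RefSeq (GRCh38.p14) for 42 of the 48 genes, as 250 bases before and 50 after each start, which gave 54 promoters. MCM4, MCM5, GINS4, POLD3, RPA2 and RPA3 had no entry. An E2F site, searched on both strands as TTTCCCGC, TTTCGCGC, TTTGCCGC or TTTGGCGC, was found in a promoter of 21 of the 42 genes (50.0%) and in 22 of the 54 promoters (40.7%), against 3.31% of all 35116 promoters in the table. A CCAAT box (CCAAT, both strands) was in 33 of the 54 promoters (61.1%, against 34.6% of all), a GC box (GGGCGG) in 41 (75.9%, against 45.0%), and the cell cycle element CHR (TTTGAA), known from mitotic genes, in 1 (1.85%, against 15.2%). These letters describe the windows and say nothing of binding. The promoters of 5 genes on which the results turn are shown with E2F sites and CCAAT boxes on either strand in capitals: MCM3 (chr6:52284693-52284992, minus strand) and GINS2 (chr16:85688905-85689204, minus strand) because their RNA rose (GINS2 with siRNA.2 only past the test), LIG1 (chr19:48170295-48170594, minus strand) because its RNA fell, and the partners TIPIN (chr15:66386668-66386967, minus strand) and TIMELESS (chr12:56449377-56449676, minus strand) because their RNA moved in opposite directions.
MCM3: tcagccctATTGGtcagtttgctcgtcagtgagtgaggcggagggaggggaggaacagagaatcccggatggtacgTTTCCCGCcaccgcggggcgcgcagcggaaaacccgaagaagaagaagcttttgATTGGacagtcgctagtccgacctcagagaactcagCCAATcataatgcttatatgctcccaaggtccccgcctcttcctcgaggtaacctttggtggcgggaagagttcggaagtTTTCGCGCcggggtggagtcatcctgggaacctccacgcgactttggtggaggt
GINS2: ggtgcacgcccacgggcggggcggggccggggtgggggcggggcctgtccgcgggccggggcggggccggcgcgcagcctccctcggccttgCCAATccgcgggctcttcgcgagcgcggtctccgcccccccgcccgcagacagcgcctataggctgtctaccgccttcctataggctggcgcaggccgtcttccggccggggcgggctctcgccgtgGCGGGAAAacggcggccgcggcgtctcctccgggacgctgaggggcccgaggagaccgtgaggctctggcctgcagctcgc
LIG1: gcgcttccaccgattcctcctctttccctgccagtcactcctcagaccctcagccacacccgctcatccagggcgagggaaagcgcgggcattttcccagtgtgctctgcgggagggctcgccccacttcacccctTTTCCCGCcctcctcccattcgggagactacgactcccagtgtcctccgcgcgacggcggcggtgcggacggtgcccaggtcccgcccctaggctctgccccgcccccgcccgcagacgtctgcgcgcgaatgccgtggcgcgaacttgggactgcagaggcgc
TIPIN: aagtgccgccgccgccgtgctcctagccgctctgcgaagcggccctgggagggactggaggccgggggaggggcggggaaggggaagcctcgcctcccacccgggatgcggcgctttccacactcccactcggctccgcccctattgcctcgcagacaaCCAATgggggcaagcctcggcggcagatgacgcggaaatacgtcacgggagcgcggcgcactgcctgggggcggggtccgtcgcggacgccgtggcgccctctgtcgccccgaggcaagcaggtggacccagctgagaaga
TIMELESS: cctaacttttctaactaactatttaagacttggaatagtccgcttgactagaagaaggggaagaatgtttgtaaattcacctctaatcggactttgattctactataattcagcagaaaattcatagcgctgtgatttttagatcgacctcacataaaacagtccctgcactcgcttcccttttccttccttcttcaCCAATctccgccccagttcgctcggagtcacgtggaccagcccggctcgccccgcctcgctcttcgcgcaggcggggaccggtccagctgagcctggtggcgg
MCM3 held 2 E2F sites and 3 CCAAT boxes, GINS2 1 of each, and LIG1 1 E2F site and no CCAAT box. TIPIN and TIMELESS each held 1 CCAAT box and no E2F site in the window shown, while TIPIN has a second promoter entry, which holds an E2F site. The RefSeq start of GINS2 lay 1119 bases from the gene start in the deposited table, and those of the other 4 between 0 and 259 bases.

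Total counts on genes lay at 15337917 to 17899074 (control), 15374616 to 17762752 (siRNA.1) and 19213164 to 22559998 (siRNA.2). All 48 genes passed the filter on low values (a mean of 0.1 FPKM, counts per kilobase of exonic length, scaled to the total count of the library), with mean counts between 172 (POLA2) and 10122 (MCM7), and 21395 genes were tested in all. LINC00885 itself had 6, 7 and 12 counts with control siRNA, 4, 5 and 2 with siRNA.1, and 2, 0 and 4 with siRNA.2, too few to rank the siRNAs. All 10 squamous epithelial markers were above 1 FPKM in every library, and their summed level was 1118 to 1129 FPKM (control), 1025 to 1034 (siRNA.1) and 1016 to 1035 (siRNA.2), without overlap of control and knockdown. Of 6 leukocyte markers, 5 stayed under 1 FPKM everywhere, with MS4A1 at 0. The remaining marker reached 1 FPKM in some libraries but not in all. The summed level of the 6 was 0.26 to 0.61 FPKM (control), 3.01 to 3.58 (siRNA.1) and 3.24 to 3.97 (siRNA.2). Of 6 fibroblast markers 5 stayed under 1 FPKM everywhere (sums of 2.23 to 2.49, 1.46 to 1.64 and 1.5 to 1.72), as did all 4 endothelial markers (1.2 to 1.56, 0.63 to 0.95 and 0.48 to 0.54). Mitochondrially encoded genes took 7.46% to 7.66% of the counts in control libraries, and 4.99% to 5.06% (siRNA.1) and 5.54% to 5.56% (siRNA.2) after knockdown, and leaving them out left the siRNA.1 count of genes called at 24. That check was made on counts. The effect of the mitochondrial share on FPKM, which are scaled to total counts, was not tested, nor was any other part in the results.

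The replication genes were well expressed in TE13 cells. With control siRNA their median level was 18.1 FPKM, against 1.79 FPKM over all genes tested, and 47 of the 48 lay above that median. PCNA, the clamp, was highest at 233 FPKM ± 18 (SD, n = 3), and POLA2, a subunit of polymerase alpha, was lowest at 1.48 FPKM ± 0.19 (SD, n = 3). Of the summed FPKM of MCM2 to MCM7, which enter the helicase in equal numbers, MCM7 made up 36.4% ± 0.12 (SD, n = 3) in control cells and MCM5 7.52% ± 0.47. The SD within a condition was at most 13.3% of the mean for any of the 48 genes.

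The replication genes did not move as a block with either siRNA. With siRNA.1, 24 of 48 passed the test (adjusted p under 0.05 by edgeR's quasi-likelihood test over all genes), 10 higher and 14 lower, and the median log2 fold change was -0.02, against -0.00056 over all genes tested. With siRNA.2, 23 passed, of which 18 were higher and 5 lower, and the median was 0.08, against 0.0040. No change was large: log2 fold changes ran from -0.44 (GINS4) to 0.36 (TIPIN) for siRNA.1, and from -0.45 (TIMELESS) to 0.57 (TIPIN) for siRNA.2. Both comparisons use the same 3 control libraries and are therefore not independent.

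These counts have to be read against how often genes passed in general. Over all genes tested, 30.3% passed with siRNA.1 (15.0% higher, 15.2% lower) and 30.9% with siRNA.2 (15.8% higher, 15.1% lower). Among the 10047 genes with a mean count at least that of POLA2, 50.6% passed with siRNA.1 (24.6% higher, 26.0% lower) and 51.8% with siRNA.2 (26.2% higher, 25.6% lower). The replication genes passed at 50.0% (20.8% higher, 29.2% lower) and 47.9% (37.5% higher, 10.4% lower), so the total was near the share for genes of that depth with both siRNAs. With siRNA.2 the share higher was above that share and the share lower was below it. In FPKM, 13 of the 48 lay above all control libraries and 13 below with siRNA.1 (20.7% and 17.0% of all genes). With siRNA.2, 23 lay above and 6 below (21.1% and 18.5% of all genes). The share without overlap was not computed for the deeper genes. The split with siRNA.1 differed between fits, since limma on log2(FPKM + 0.1) called 12 higher and 8 lower. That fit differs from edgeR in its scaling too, as FPKM are scaled to total counts and edgeR used TMM. The effects of test and scaling were not tested apart. In 1 or both limma fits, with a pseudocount of 0.1 or 1, the siRNA.1 calls on POLA1, PRIM2, TYMS, CLSPN, WDHD1 and CHAF1B were lost (adjusted p from 0.0709 to 0.200), as were the siRNA.2 calls on CDT1, POLA2, POLE and TYMS (adjusted p from 0.0502 to 0.104).

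**Figure D1:**
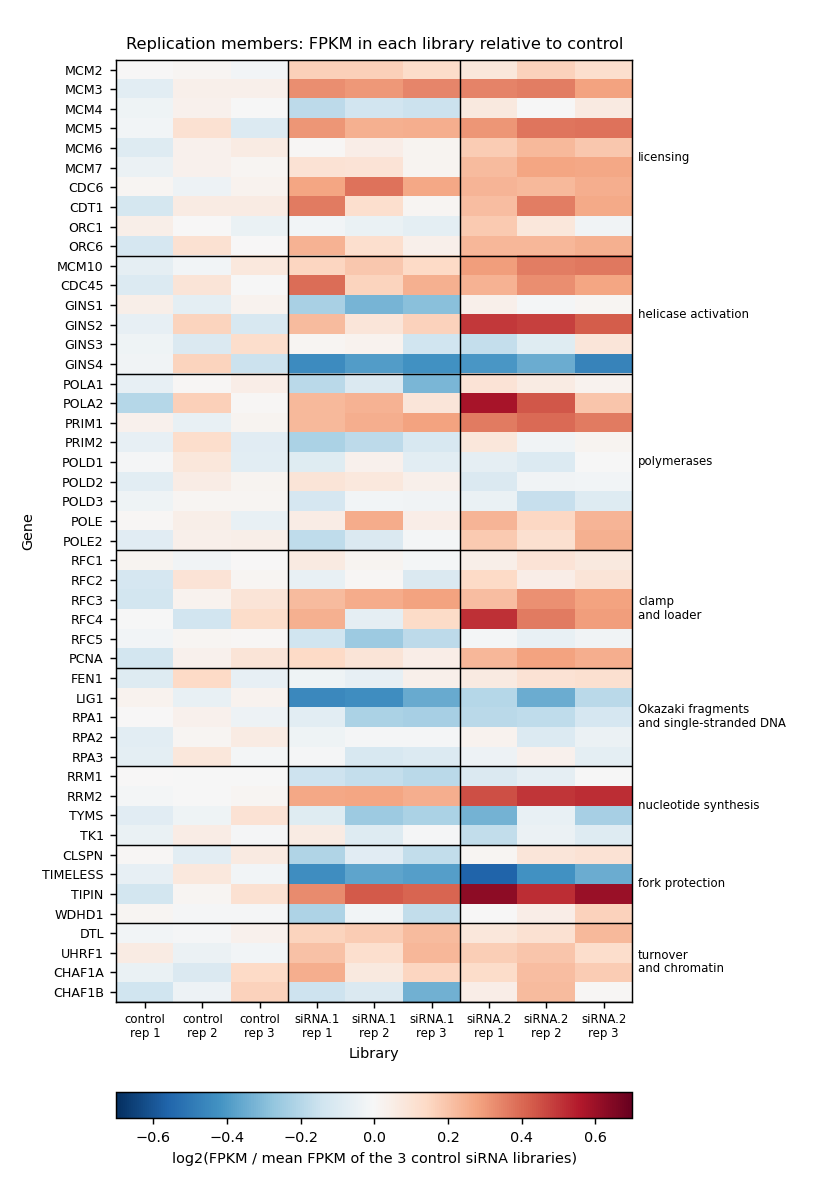
Level of each of the 48 replication genes (rows, by role) in each of the 9 libraries (columns), as log2 of FPKM over the mean of the 3 control siRNA libraries; red is higher and blue is lower. TIPIN, RRM2 and MCM3 are red and TIMELESS, GINS4 and LIG1 blue in all 6 knockdown libraries, while MCM4, GINS1 and RFC5 are blue in all 3 siRNA.1 libraries and close to white with siRNA.2.

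Origin licensing genes were mostly higher where they passed: 4 of 10 rose and 1 fell with siRNA.1, and 7 rose with siRNA.2. Of genes at least as deep as POLA2, 24.6% were higher and 26.0% lower with siRNA.1, and 26.2% higher and 25.6% lower with siRNA.2. The total of the group with siRNA.1 (50.0%) was thus near the 50.6% of those genes, and only its split by direction differed. MCM3, a helicase subunit, measured 33.0, 35.7 and 35.7 FPKM in the control libraries, 43.6, 42.9 and 44.0 with siRNA.1 and 44.2, 44.5 and 42.3 with siRNA.2. All 6 knockdown libraries were above the 3 controls, with log2 fold changes of 0.30 ± 0.051 (SE; adjusted p = 6.51e-08) and 0.32 ± 0.050 (adjusted p = 4.33e-09). MCM5, another subunit, measured 24.1, 26.3 and 22.8 FPKM with control siRNA, 30.2, 29.0 and 29.1 with siRNA.1 and 30.3, 31.6 and 31.7 with siRNA.2. It also stood above control in all 6 libraries, by 0.24 ± 0.047 (adjusted p = 2.01e-06) and 0.34 ± 0.046 (adjusted p = 2.41e-12). MCM4 behaved otherwise, at 55.2, 57.6 and 56.2 FPKM with control siRNA, 49.5, 51.3 and 50.8 with siRNA.1 and 59.0, 56.3 and 58.8 with siRNA.2. Its 3 siRNA.1 libraries lay below all others, with a fall of 0.18 ± 0.041 on the log2 scale (adjusted p = 5.66e-05), whereas the siRNA.2 libraries overlapped control (0.03 ± 0.041, adjusted p = 0.632).

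Among the other MCM subunits, MCM6 and MCM7 rose with siRNA.2 (0.19 and 0.25) and had log2 fold changes of 0.00 and 0.05 with siRNA.1, which did not pass. MCM2 rose with siRNA.1 (0.13 ± 0.047, adjusted p = 0.0253), a call lost without control replicate 3 (adjusted p = 0.0936) or siRNA.1 replicate 1 (0.0722), and had 0.11 with siRNA.2 (adjusted p = 0.0601). The summed FPKM of MCM2 to MCM7 shifted in make-up by little: MCM4 took 17.4% ± 0.16 (SD, n = 3) in control cells, 14.7% ± 0.36 (siRNA.1) and 15.4% ± 0.55 (siRNA.2) after knockdown, and MCM3 took 10.7% ± 0.23, 12.7% ± 0.31 and 11.6% ± 0.35. Of the loading factors, CDC6 rose with siRNA.1 (0.28 ± 0.053, adjusted p = 9.91e-07) and with siRNA.2 (0.23 ± 0.052, adjusted p = 8.69e-05). CDT1, its partner in loading, rose with siRNA.2 (0.27 ± 0.063, adjusted p = 0.000147) and had 0.15 with siRNA.1 (adjusted p = 0.0744). ORC6 of the origin recognition complex rose with siRNA.2 (0.23 ± 0.070, adjusted p = 0.00484), a call lost without control replicate 1 (adjusted p = 0.0747), while ORC1 passed with neither siRNA.

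The factors that activate the helicase split by subunit. GINS2 measured 14.3, 16.6 and 13.8 FPKM with control siRNA, 17.3, 15.8 and 16.6 with siRNA.1 and 20.9, 20.7 and 19.9 with siRNA.2. Every siRNA.2 library was above the 6 others (0.45 ± 0.068 against control, adjusted p = 3.59e-10), and the siRNA.1 libraries overlapped control (0.13, adjusted p = 0.153). GINS4, a partner in the same 4-subunit complex, measured 4.46, 5.05 and 4.08 FPKM with control siRNA, 3.34, 3.46 and 3.38 with siRNA.1 and 3.41, 3.56 and 3.28 with siRNA.2. Both siRNAs put it below every control library, by a fall of 0.44 ± 0.105 (adjusted p = 0.000161) and of 0.42 ± 0.103 (adjusted p = 0.000317) on the log2 scale. GINS1 fell with siRNA.1 by 0.31 ± 0.061 (adjusted p = 4.78e-06) and was level with control under siRNA.2, and GINS3 passed with neither. CDC45, which joins MCM2-7 and GINS in the active helicase, rose with siRNA.1 (0.24 ± 0.068, adjusted p = 0.00189, lost without siRNA.1 replicate 1, where it was 0.0714) and with siRNA.2 (0.27 ± 0.067, adjusted p = 0.000346). MCM10, which works with CDC45 at the start of synthesis, rose with siRNA.2 (0.33 ± 0.054, adjusted p = 1.14e-08) and had 0.13 with siRNA.1 (adjusted p = 0.052).

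Of the 9 polymerase genes, 3 passed with each siRNA (33.3%), below the 50.6% and 51.8% of genes at least as deep as POLA2. POLA1, the catalytic subunit of polymerase alpha, measured 2.44, 2.56 and 2.63 FPKM with control siRNA, 2.23, 2.37 and 2.04 with siRNA.1 and 2.72, 2.65 and 2.59 with siRNA.2. It fell with siRNA.1 by 0.23 ± 0.081 (adjusted p = 0.0166), a call lost without control replicate 3 (adjusted p = 0.0834) or siRNA.1 replicate 3 (0.151), and the siRNA.2 libraries overlapped control. POLA2, its regulatory partner, measured 1.29, 1.66 and 1.49 FPKM with control siRNA, 1.73, 1.75 and 1.57 with siRNA.1 and 2.21, 2.0 and 1.69 with siRNA.2. The siRNA.2 libraries were above control (0.40 ± 0.145, adjusted p = 0.0225), but this call on the lowest member was lost in 4 of the 9 fits without 1 library: without control replicate 1 (adjusted p = 0.145) or 3 (0.0512), and without siRNA.2 replicate 1 (0.143) or 2 (0.0653).

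PRIM1, the catalytic primase subunit, rose with siRNA.1 (0.23 ± 0.072, adjusted p = 0.00729) and with siRNA.2 (0.36 ± 0.070, adjusted p = 2.17e-06). PRIM2, the large primase subunit, fell with siRNA.1 by 0.20 ± 0.079 (adjusted p = 0.0434), a call lost without the filter on low values (adjusted p = 0.0793), in the fit of the 2 groups alone (0.0545) and in 4 of the 9 fits without 1 library: without control replicate 2 (adjusted p = 0.304), siRNA.1 replicate 1 (0.131) or 2 (0.101), or siRNA.2 replicate 3 (0.0508). The annotation also holds PRIM2BP, an unprocessed pseudogene of PRIM2, so reads of the pair may be split between them. POLE, the leading-strand polymerase, rose with siRNA.2 (0.20 ± 0.051, adjusted p = 0.000686), and its accessory subunit POLE2 measured 7.96, 8.6 and 8.64 FPKM with control siRNA, 7.43, 7.84 and 8.33 with siRNA.1 and 9.52, 9.07 and 9.98 with siRNA.2. The siRNA.2 libraries of POLE2 were above all others, though neither comparison with control passed. The polymerase delta subunits POLD1, POLD2 and POLD3 passed in no comparison, with log2 fold changes between -0.11 and 0.04 against control.

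PCNA and the loader rose with siRNA.2 in 3 of 6 genes (50.0%), against 26.2% of genes at least as deep as POLA2. RFC3, a loader subunit, measured 42.9, 47.7 and 49.9 FPKM with control siRNA, 54.6, 56.0 and 56.9 with siRNA.1 and 54.5, 58.5 and 57.0 with siRNA.2. All knockdown libraries were above control, by 0.23 ± 0.050 (adjusted p = 5.83e-05) and 0.26 ± 0.050 (adjusted p = 1.41e-06). RFC4 measured 15.9, 14.5 and 17.4 FPKM with control siRNA, 18.9, 15.3 and 17.5 with siRNA.1 and 22.7, 20.5 and 19.5 with siRNA.2. Only the siRNA.2 libraries of RFC4 stood clear of control (0.38 ± 0.069, adjusted p = 4.38e-07). PCNA rose with siRNA.2 by 0.25 ± 0.042 (adjusted p = 3.58e-08), from 233 FPKM to 278 FPKM ± 4.6 (SD, n = 3), and had 0.07 with siRNA.1 (adjusted p = 0.252). RFC5 fell with siRNA.1 by 0.22 ± 0.065 (adjusted p = 0.00364), and RFC1 and RFC2 passed against control with neither siRNA.

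At the lagging strand, the genes that passed were lower. LIG1, the ligase that seals Okazaki fragments, measured 9.84, 9.31 and 9.85 FPKM with control siRNA, 7.06, 7.14 and 7.57 with siRNA.1 and 8.43, 7.59 and 8.47 with siRNA.2. The 3 conditions did not overlap, with a fall of 0.44 ± 0.069 (adjusted p = 3.12e-09) with siRNA.1 and of 0.25 ± 0.068 (adjusted p = 0.000962) with siRNA.2. RPA1, the large subunit of the complex that coats single-stranded DNA, fell by 0.20 ± 0.048 (adjusted p = 0.000221) and 0.17 ± 0.048 (adjusted p = 0.00181). Its partners RPA2 and RPA3, and the flap nuclease FEN1, passed with neither siRNA, at -0.10 to 0.08.

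The ribonucleotide reductase subunits moved apart. RRM2, the small subunit, whose level follows S phase, measured 25.4, 25.7 and 26.0 FPKM with control siRNA, 31.0, 31.2 and 30.7 with siRNA.1 and 35.1, 36.3 and 36.8 with siRNA.2. The 3 conditions were fully separate, with a rise of 0.24 ± 0.044 (adjusted p = 5.42e-07) with siRNA.1 and of 0.48 ± 0.044 (adjusted p = 4e-26) with siRNA.2. RRM1, the large subunit that pairs with it, measured 39.3, 39.3 and 39.3 FPKM with control siRNA, 35.6, 35.0 and 34.5 with siRNA.1 and 36.6, 37.7 and 39.2 with siRNA.2. It fell with siRNA.1 by 0.19 ± 0.050 (adjusted p = 0.000666) and had -0.06 with siRNA.2 (adjusted p = 0.362). The ratio of RRM2 to RRM1 in FPKM therefore went from 0.655 ± 0.0078 (SD, n = 3) to 0.883 ± 0.011 and 0.953 ± 0.014.

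This ratio, like the others given here, was chosen after the values were seen and is a description with no test. TYMS, which makes thymidylate, fell by 0.21 ± 0.077 (adjusted p = 0.021) and 0.21 ± 0.076 (adjusted p = 0.0196), and was the least certain of the nucleotide genes. Its siRNA.1 call was lost without control replicate 3 (adjusted p = 0.188), siRNA.1 replicate 2 (0.111) or 3 (0.083), and its siRNA.2 call without control replicate 3 (0.187), siRNA.2 replicate 1 (0.227) or 3 (0.0711). In addition, 39.9% of its exonic length lies opposite exons of ENOSF1, which fell with siRNA.1 (-0.27, adjusted p = 0.0348) and siRNA.2 (-0.30, adjusted p = 0.0157), and whether the counting used strand is not given in the sources used here. TK1, which salvages thymidine, passed with neither siRNA (-0.04 and -0.11).

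TIPIN and TIMELESS, whose proteins form the complex that steadies a stalled fork, changed in opposite directions with both siRNAs. TIPIN measured 10.3, 11.4 and 12.1 FPKM with control siRNA, 14.1, 15.2 and 14.9 with siRNA.1 and 17.4, 16.1 and 17.1 with siRNA.2. All knockdown libraries were above control, by 0.36 ± 0.081 (adjusted p = 6.94e-05) and 0.57 ± 0.079 (adjusted p = 1.19e-11). TIMELESS measured 16.7, 18.3 and 17.1 FPKM with control siRNA, 12.8, 13.4 and 13.3 with siRNA.1 and 11.8, 12.9 and 13.6 with siRNA.2. All its knockdown libraries were below control, by a fall of 0.42 ± 0.059 (adjusted p = 1.43e-11) and of 0.45 ± 0.058 (adjusted p = 2.26e-13). The TIPIN to TIMELESS ratio in FPKM rose from 0.648 ± 0.051 (SD, n = 3) in control cells to 1.12 ± 0.014 (siRNA.1) and 1.32 ± 0.13 (siRNA.2), so TIMELESS was the more abundant per length in control cells and TIPIN in knockdown cells. The pseudogene RPL9P25 lies over 21.1% of the exonic length of TIPIN on the same strand and had 0 counts in all 9 libraries.

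CLSPN, the mediator that brings the checkpoint kinase CHK1 to TIMELESS-bound forks, measured 9.86, 9.32 and 10.3 FPKM with control siRNA, 8.49, 9.29 and 8.7 with siRNA.1 and 9.91, 10.4 and 10.5 with siRNA.2. It fell with siRNA.1 by 0.18 ± 0.058 (adjusted p = 0.00756, 0.0886 without control replicate 3), and its siRNA.2 libraries overlapped control. WDHD1, which tethers polymerase alpha to the helicase, fell with siRNA.1 by 0.16 ± 0.059 (adjusted p = 0.0236). This call was lost without control replicate 1 (adjusted p = 0.062) or 3 (0.0536), and without siRNA.1 replicate 1 (0.149) or 3 (0.105).

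**Figure D2:**
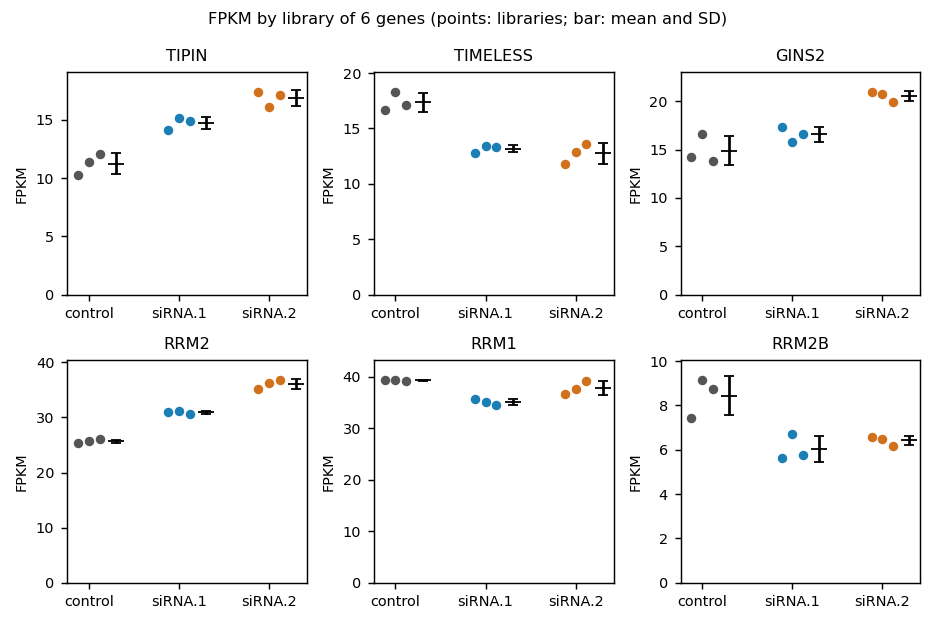
FPKM of 6 genes in each library (points) by condition, with the mean and SD (n = 3) beside them, and the vertical axis starting at 0. TIPIN and RRM2 are higher and TIMELESS and RRM2B lower in every knockdown library than in control, and GINS2 is clear of control with siRNA.2 only.

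Of the turnover and chromatin genes, 1 rose and 1 fell with siRNA.1 (50.0%, near the 50.6% of genes at least as deep as POLA2). CHAF1B, a subunit of the chromatin assembly factor that follows PCNA, measured 8.72, 9.38 and 10.7 FPKM with control siRNA, 8.68, 8.96 and 7.6 with siRNA.1 and 9.91, 11.2 and 9.65 with siRNA.2. Its fall of 0.22 ± 0.074 with siRNA.1 (adjusted p = 0.0103) came with overlapping libraries and was lost without control replicate 3 (adjusted p = 0.265) or siRNA.1 replicate 3 (0.169). CHAF1A, the large subunit, measured 8.76, 8.45 and 9.98 FPKM with control siRNA, 10.8, 9.52 and 10.1 with siRNA.1 and 9.92, 10.5 and 10.3 with siRNA.2. It overlapped control with both siRNAs and passed with neither (0.13 and 0.16). DTL, which marks CDT1 for destruction at PCNA, rose with siRNA.1 (0.16 ± 0.061, adjusted p = 0.0353), a call lost without control replicate 1 (adjusted p = 0.0924) or 2 (0.0894) or siRNA.1 replicate 3 (0.143). UHRF1, which guides maintenance methylation, had 0.16 and 0.15 and passed with neither.

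**Figure D3:**
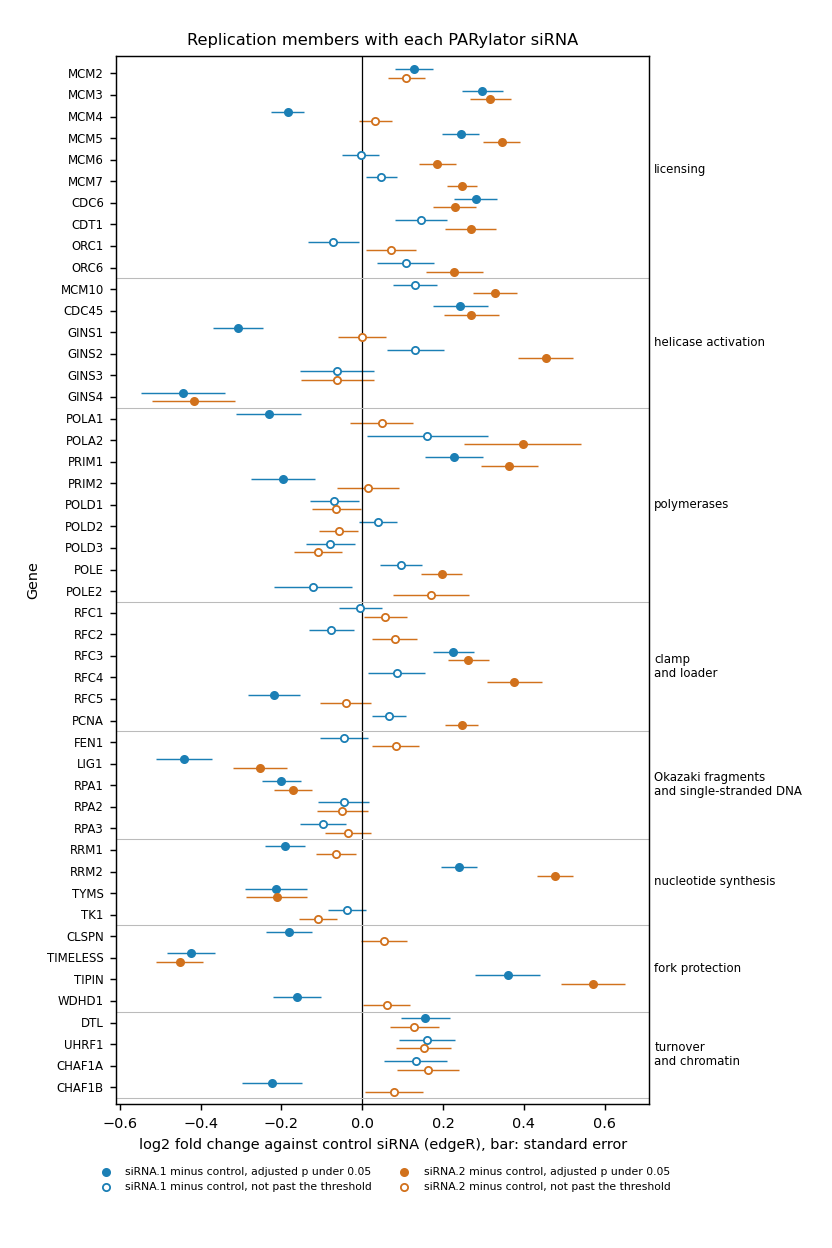
log2 fold change against control siRNA of each of the 48 replication genes with siRNA.1 (blue) and siRNA.2 (orange), by role; bars are standard errors and filled points passed an adjusted p of 0.05 (edgeR). Licensing genes lie mostly to the right, LIG1, RPA1, TIMELESS and GINS4 to the left with both siRNAs, and the orange point lies to the right of the blue one for 39 of 48 genes.

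The siRNAs were compared with each other directly. The difference itself uses no control library, but the fit takes its spread from all 9, and in the fit of these 2 groups alone RFC5 no longer passed (adjusted p = 0.0517). Of the 48 genes 16 passed, and all 16 were higher with siRNA.2. Over all genes tested 12.2% passed (6.10% higher, 6.06% lower), and among the 10047 genes of at least the depth of POLA2 22.7% passed (11.6% higher, 11.1% lower), against 33.3% of the replication genes. The median log2 difference was 0.13, against 0.0043 over all genes, and 39 of 48 genes were positive. In FPKM, 23 lay above all siRNA.1 libraries and 2 below, where 11.3% and 13.1% of all genes did, a share not computed for the deeper genes. The count fell to 10, again all higher, with limma on log2(FPKM + 0.1), where POLA1, RFC2, RFC4, PCNA, WDHD1 and CHAF1B lost their calls (adjusted p from 0.0811 to 0.187), and stayed between 12 and 18 when any 1 library was left out. The median FPKM of the members relative to the control mean, as log2, was 0.003 to 0.035 in the siRNA.1 libraries and 0.089 to 0.116 in the siRNA.2 libraries, against -0.045 to 0.021 in the control libraries. These levels are scaled to total counts. Under TMM in edgeR the median change against control kept its sign for siRNA.2 (0.08) but had the opposite sign for siRNA.1 (-0.02). The sign of the siRNA.1 median therefore differed between the scalings.

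The largest difference was that of GINS2 (0.32 ± 0.067, adjusted p = 4.84e-05), followed by GINS1 (0.31 ± 0.061, adjusted p = 1.35e-05), CHAF1B (0.30 ± 0.072, adjusted p = 0.000638), POLE2 (0.29 ± 0.094, adjusted p = 0.0195) and RFC4 (0.29 ± 0.068, adjusted p = 0.000418). These genes reached the difference in distinct ways: GINS1 and CHAF1B were lower than control with siRNA.1, GINS2 and RFC4 were higher than control with siRNA.2, and POLE2 passed against control with neither. RRM2 rose against control with each siRNA and was higher again with siRNA.2 by 0.24 ± 0.043 (adjusted p = 1.79e-06). TIPIN (0.21 ± 0.077, adjusted p = 0.0513), LIG1 (0.19 ± 0.069, adjusted p = 0.0542) and PRIM2 (0.21 ± 0.077, adjusted p = 0.0531) just missed the threshold. The calls on POLA1, POLE2, RFC2, RFC5, WDHD1 and CHAF1B were each lost in at least 1 fit without a siRNA.1 or siRNA.2 library, with adjusted p up to 0.101, 0.148, 0.215, 0.214, 0.104 and 0.0558 in that order: POLA1 without siRNA.1 replicate 3, POLE2 without siRNA.1 replicate 1 or 2 or siRNA.2 replicate 3, WDHD1 without siRNA.2 replicate 3 and CHAF1B without siRNA.2 replicate 2. RFC2 lost its call without any of siRNA.1 replicates 1 and 3 or the 3 siRNA.2 replicates, and RFC5 without siRNA.1 replicates 2 and 3 or the 3 siRNA.2 replicates.

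**Figure D4:**
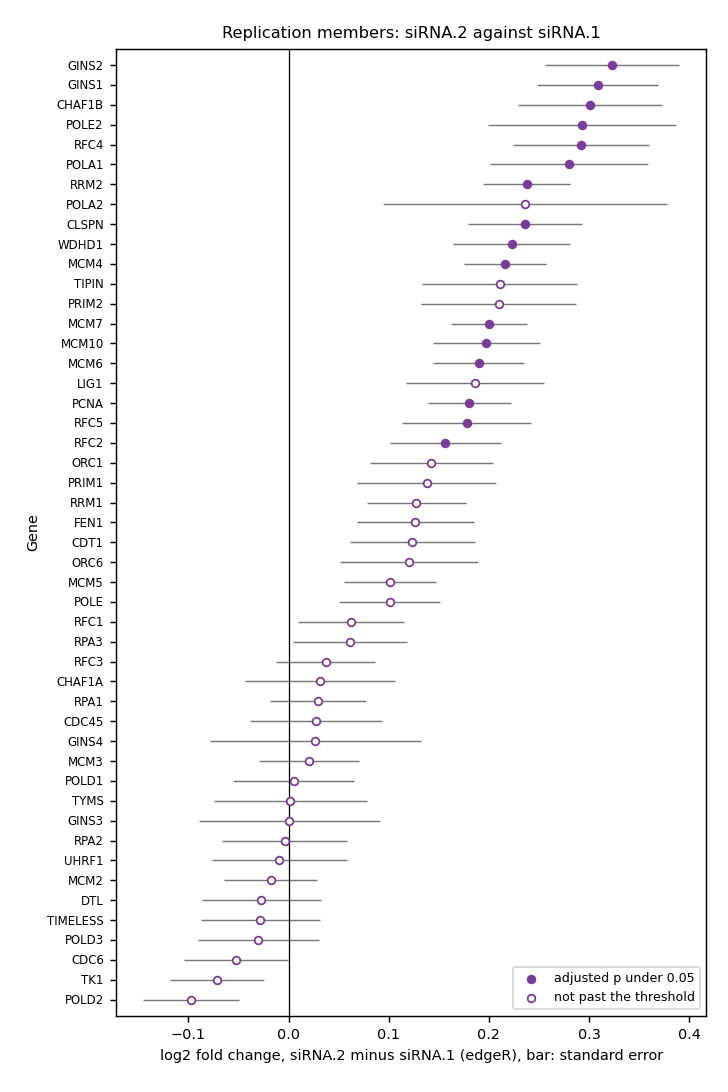
log2 difference of siRNA.2 minus siRNA.1 for each of the 48 replication genes, sorted; bars are standard errors and filled points passed an adjusted p of 0.05 (edgeR). The 16 filled points all lie to the right of 0, from RFC2 (0.16) to GINS2 (0.32).

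An E2F site was found in the promoters of genes that rose, of genes that fell and of genes not called. Of the genes with a promoter entry, 6 of the 9 higher, 5 of the 12 lower and 10 of the 21 not called with siRNA.1 held one, and 11 of 17, 2 of 4 and 8 of 21 with siRNA.2. Among those higher with siRNA.2 than with siRNA.1 it was 8 of 15, against 13 of 27 of the rest. Among genes lower with each siRNA, LIG1 and TYMS held an E2F site, while RPA1 and TIMELESS held none. Among genes higher with each, MCM3, CDC6, RFC3 and TIPIN (in its second promoter entry) held one, while CDC45, PRIM1 and RRM2 held none. GINS4, also lower with each, and MCM5, also higher with each, had no promoter entry. The sites of MCM3 and LIG1 are in the sequences above. No test was run on these counts.

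Of 59 other genes of the pathway, 27 passed with siRNA.1 (14 higher, 13 lower), 32 with siRNA.2 (25 higher, 7 lower), and 16 between the siRNAs, all higher with siRNA.2. These are 45.8%, 54.2% and 27.1% of the list, against 30.3%, 30.9% and 12.2% of all genes tested and 50.6%, 51.8% and 22.7% of the 10047 deeper genes, so the totals against control were near the share of the deeper genes. By direction, 23.7%, 42.4% and 27.1% of the list were higher, against 24.6%, 26.2% and 11.6% of the deeper genes. With siRNA.1 and siRNA.2, 22.0% and 11.9% of the list were lower, against 26.0% and 25.6%. The 20 genes of nucleotide supply held 12 of these calls with siRNA.1 (8 higher, 4 lower) and 16 with siRNA.2 (12 higher, 4 lower), or 60.0% and 80.0% of the group beside those same shares. SAMHD1, which breaks down deoxynucleotides, measured 16.9, 16.9 and 15.0 FPKM with control siRNA, 27.9, 30.6 and 28.7 with siRNA.1 and 29.6, 30.1 and 30.0 with siRNA.2. It rose by 0.81 ± 0.045 (adjusted p = 4.14e-71) and 0.87 ± 0.045 (adjusted p = 2.98e-82), more than any of the 48 members. CTPS1, which makes CTP, rose by 0.48 and 0.55, and the gene of the first steps of pyrimidine synthesis, CAD, by 0.24 and 0.42. RRM2B, the small reductase subunit induced by p53, measured 7.44, 9.14 and 8.72 FPKM with control siRNA, 5.62, 6.71 and 5.75 with siRNA.1 and 6.59, 6.49 and 6.18 with siRNA.2. It fell by 0.52 ± 0.081 (adjusted p = 2.82e-09) and 0.41 ± 0.079 (adjusted p = 2.6e-06), opposite to RRM2, and the RRM2B to RRM2 ratio went from 0.328 ± 0.032 (SD, n = 3) to 0.195 ± 0.018 and 0.178 ± 0.0099. SHMT1, an enzyme of one-carbon metabolism, fell by 0.21 and 0.36.

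Outside nucleotide supply, the highest of the other genes with both siRNAs were ORC3 of the origin recognition complex (0.64 and 0.68), the histone chaperone ASF1A (0.44 and 0.62) and DBF4B, an activator of the kinase CDC7 (0.50 and 0.34). MCM9, a helicase of recombination repair, was lowest, with a fall of 0.93 ± 0.118 (adjusted p = 8.88e-14) and 0.71 ± 0.114 (adjusted p = 5.97e-09). ASF1B, the paralog of ASF1A that cycling cells use, fell by 0.58 and 0.19, so the paralogs moved in opposite directions. CDC7, the kinase that fires origins, rose with siRNA.2 (0.23, adjusted p = 0.00411) and had -0.13 with siRNA.1 (adjusted p = 0.168). Its activator DBF4, the CDT1 inhibitor GMNN and the maintenance methyltransferase DNMT1 passed in no comparison.

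**Figure D5:**
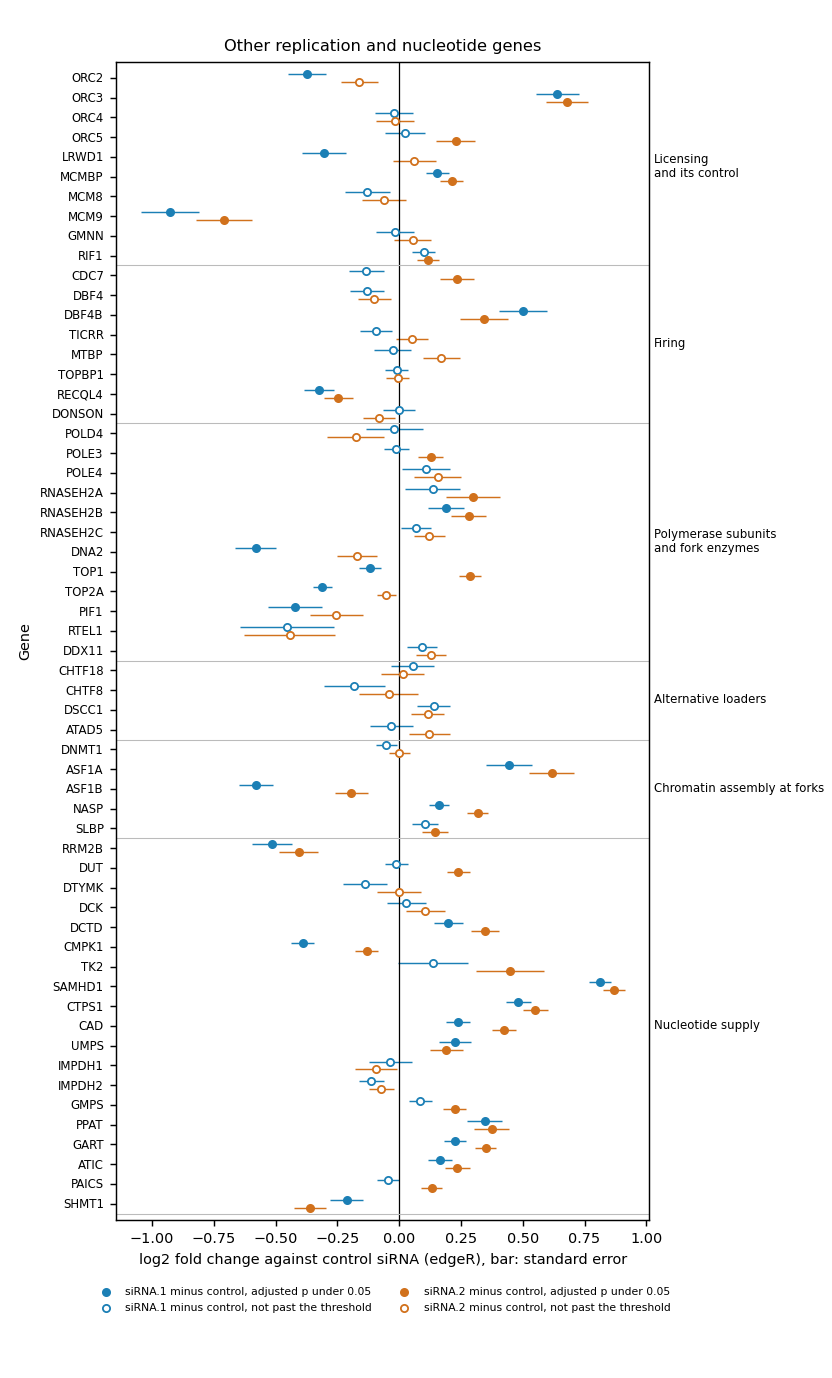
log2 fold change against control siRNA of the other replication and nucleotide genes with siRNA.1 (blue) and siRNA.2 (orange), by role; bars are standard errors and filled points passed an adjusted p of 0.05 (edgeR). SAMHD1 and ORC3 lie farthest to the right and MCM9 farthest to the left with both siRNAs.

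Exons on the opposite strand covered part of 19 of the 48 genes, and over 10% of the exonic length of 5: MCM2, GINS3, GINS4, RFC5 and TYMS. ENOSF1, opposite TYMS, had 310 to 408 counts per library, and WSB2, opposite 5.72% of RFC5, had 974 to 1474 and fell with both siRNAs (-0.35 and -0.47). Opposite GINS4 lay the lncRNA ENSG00000253174, with 0 to 10 counts per library, and opposite MCM2 lay ENSG00000285600, with 12 to 25, and opposite GINS3 lay ENSG00000276131, with 1 to 21. Without strand, reads of such partners cannot be told apart.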

How the data were processed

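RNA-seq of poly(A)+ RNA was measured in 9 libraries of TE13 cells, grouped by their labels (control siRNA, PARylator siRNA.1 and PARylator siRNA.2, 3 each). Reads were aligned by the authors with STAR, and featureCounts then gave a count for each gene (GRCh38). Their versions and the strand setting are not given in the sources used here. The deposited table holds the authors' raw counts and, beside them, the authors' FPKM. The coordinates of genes come from the deposited table, and exon overlaps from GENCODE release 44.

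Counts were tested with edgeR 4.0.16 (R 4.3.3, TMM, quasi-likelihood F test) in 1 fit of the 3 conditions without covariates, over 21395 genes (mean FPKM of 0.1 or more), with Benjamini-Hochberg adjusted p-values and a threshold of 0.05. The study's methods name DESeq2, which was kept as an alternative (1.42.0), with limma 3.58.1. Standard errors were obtained from the fold change and its F statistic, as the size of the first over the root of the second. FPKM are given as levels, and compared between genes per length only. The fit was tested on simulated counts with known changes in the siRNA.1 libraries only. The changes set there were larger than those of nearly all members, so recovery of changes of the members' size was not tested. Replicates differed by more than sampling noise (chi-square per degree of freedom of 2.73 to 4.40). The lowest count of any member in a library was 110, so counting error is part of the spread of the lowest members.

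The members and gene lists were chosen with earlier results of these data known. In each role group, values in every library are given for the gene with the largest absolute log2 fold change in each comparison. RRM1 was added to them after its values were seen, and CAD was named in the same way. Of the other pathway genes, the 5 highest and 5 lowest that passed with both siRNAs in 1 direction are named, with GMNN, CDC7, DBF4, RRM2B, SAMHD1 and DNMT1. Of the genes this rule names, 1 is not reported here. The alternatives were DESeq2 size factors, DESeq2, limma on log2(FPKM + 0.1) and log2(FPKM + 1), no filter, a filter at 1 FPKM, a replicate block, fits of the 2 compared groups alone, mitochondrially encoded genes left out, and each library left out in turn. Protein sequences were not analysed here.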

Additional observations from a re-analysis of the deposited data

Results flagged for a closer look

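Of the replication genes, 16 differed between the siRNAs by the direct test (edgeR, adjusted p under 0.05), although both target the same RNA, and all were higher with siRNA.2. The log2 differences, siRNA.2 minus siRNA.1, were 0.22 for MCM4, 0.19 for MCM6, 0.20 for MCM7 and 0.20 for MCM10, of the helicase and its loading. They were 0.31 for GINS1 and 0.32 for GINS2. For polymerase genes they were 0.28 for POLA1 and 0.29 for POLE2. For the clamp and its loader they were 0.18 for PCNA, 0.16 for RFC2, 0.29 for RFC4 and 0.18 for RFC5. Among the remaining groups they were 0.24 for RRM2, 0.24 for CLSPN, 0.22 for WDHD1 and 0.30 for CHAF1B. In this direct comparison 8 of these calls held under all 18 alternatives, those of MCM4, MCM6, MCM7, MCM10, GINS1, GINS2, RRM2 and CLSPN. What sets the siRNAs apart was not tested.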

How the results depend on the processing

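Over 18 alternatives, 144 member results (48 genes in 3 comparisons) gave 2592 values, of which 90 lost a call, 44 gained one and none reversed a called direction. Signs changed in 69 values of 20 results, all without a call and with a log2 fold change of at most 0.083 in size. Of 63 calls 41 held under every alternative: 15 of 24 with siRNA.1, 18 of 23 with siRNA.2 and 8 of 16 between the siRNAs. Leaving out 1 library gave 19 to 25, 22 to 25 and 12 to 18 calls on members in that order. Both limma fits gave 10 calls on members between the siRNAs (16 with edgeR), 10 on the other pathway genes (16), 1 on the E2F, RB and cyclin genes (3) and 4 on the mitotic genes (7). Without 1 library, the E2F, RB and cyclin genes had 6 to 11 calls with siRNA.1 (11 in all libraries; 7 without control replicate 2 and 6 without siRNA.1 replicate 3) and 1 to 3 between the siRNAs (3; 1 without siRNA.2 replicate 2). The mitotic genes had 3 to 8 between the siRNAs (7; 4 without siRNA.1 replicate 1 or 3, and 3 without siRNA.2 replicate 3). The other pathway genes had 24 to 27, 26 to 33 and 11 to 16 calls.

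Same-numbered libraries did not deviate together (correlations of -0.19 to 0.11). Differently numbered libraries were not compared, so these values cannot show whether same-numbered cultures were handled as matched sets. A replicate block gave 22, 23 and 14 calls on members (24, 23 and 16 without), and the calls it ended were those on PRIM2 (adjusted p = 0.0571) and DTL (0.0508) with siRNA.1 and on RFC2 (0.0651) and RFC5 (0.0692) between the siRNAs. The cause of the lost calls was not tested. With 3 libraries per condition the smallest called change of a member was 0.13 (MCM2, log2), and genes not called are not shown to be unchanged.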

Other observations

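Of 19 E2F, RB and cyclin genes, 5 rose and 6 fell with siRNA.1, and 6 rose and 4 fell with siRNA.2. The totals, 57.9% and 52.6%, were near the 50.6% and 51.8% of genes with at least the mean count of POLA2 that passed, and the siRNA.1 count was 6 without siRNA.1 replicate 3 and 7 without control replicate 2. CDC25A, the phosphatase that activates CDK2, rose by 0.71 ± 0.058 (SE; adjusted p = 1.52e-32, edgeR) and 0.54 ± 0.058 (adjusted p = 1.42e-19) on the log2 scale. E2F1, an activator of replication genes, rose by 0.42 ± 0.075 (adjusted p = 1.99e-07) and 0.37 ± 0.074 (adjusted p = 5.43e-06). The pocket proteins RB1 (-0.37 and -0.35) and RBL2 (-0.46 and -0.41), which restrain E2F, were lower with both siRNAs, and so was cyclin D1, CCND1 (-0.32 and -0.35), while the third pocket protein RBL1 was higher (0.18 and 0.24). CCNE1, CCNE2 and CCNA2 passed in no comparison. These genes were named after their values were seen.

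Of 18 mitotic genes, 1 rose and 8 fell with siRNA.1, and 2 rose and 4 fell with siRNA.2, or 50.0% and 33.3% in all. Among genes with at least the mean count of POLA2, 50.6% and 51.8% passed, with 26.0% and 25.6% lower. The proliferation marker MKI67 (-0.18 and -0.14), cyclin B1, CCNB1 (-0.28 and -0.23), the kinetochore motor CENPE (-0.40 and -0.22) and FOXM1 (-0.22 and -0.16), a transcription factor of mitotic genes, were lower with both siRNAs. In FPKM, the MKI67 libraries overlapped control with both siRNAs, while those of CCNB1, CENPE and FOXM1 lay below all control libraries. AURKB, a mitotic kinase, was higher with both (0.15 and 0.40). Between the siRNAs 7 mitotic genes passed (4 without siRNA.1 replicate 1 or 3, and 3 without siRNA.2 replicate 3). All 7 were higher with siRNA.2, as were all 16 replication genes that passed. The 7 were 38.9% of the list. Of all genes tested 12.2% passed (6.10% higher), and of genes with at least the mean count of POLA2 22.7% (11.6% higher).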
